A study of Drosophila melanogaster with 12 samples.

Results

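*CG14499*, *CG42807* and *CG13532* are 3 genes of *Drosophila melanogaster* that still carry only the systematic names given when the genome was annotated. They were selected on measured values of the same libraries, as 3 of the 17558 genes in the count table. The selection took genes whose transcripts were higher in ERR[cond.19-4] knockout females than in ERR[cond.19-4] controls, and higher in ERR[cond.2] controls than in ERR[cond.19-4] controls. Both of these comparisons use the ERR[cond.19-4] control libraries, so they are described here without a test.

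The study asked which transcripts of adult females depend on *ERR*, and sequenced RNA from whole bodies in 4 groups of 3 libraries, each made from pooled females. In ERR[cond.19-4] knockouts, sequential heat shocks given to young adults excised the endogenous *ERR* gene, which lay between FRT recombination sites, in animals that also carried the ERR2 deletion. That deletion takes the *ERR* coding region with parts of *Atg18* and *CG7979*, and the ERR[cond.19-4] no hs controls carried it too. In ERR[cond.2] knockouts, the heat shocks excised an FRT-flanked *ERR* BAC transgene with a GFP tag from animals bearing the ERR1 and ERR2 mutant alleles. The ERR[cond.2] no hs controls bore the same mutant alleles and still had the transgene. Knockout females were sampled 7 days after heat shock. The controls of each allele were siblings with no heat shock, so the effects of the heat shock and of the loss of *ERR* cannot be told apart. The allele, the transgene and the genetic background also differ between both control groups and cannot be told apart. The columns of the count table carry a number for each allele. Here number 2 was read as ERR[cond.2], although none of the sources used says so.

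*ERR* encodes the only fly member of the estrogen-related receptor family, nuclear receptors that bind DNA and regulate transcription. In larvae it is known for switching on the genes of glycolysis and related carbohydrate metabolism that support growth. The family field deposited with the counts is empty for *CG14499*, *CG42807* and *CG13532*. An empty field does not show that a gene belongs to no known family, and no role is given to the members here.

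Library totals ran from 17167432 to 20625801 counts over the 12 libraries. CPM here means counts per 1000000 counts of the library, with library sizes scaled over all 12 libraries by the trimmed mean of M values (TMM), which sets the bulk of genes equal between them. *ERR* itself averaged 3.69 ± 0.391 CPM in ERR[cond.19-4] knockouts and 6.58 ± 1.08 CPM in their controls (SD, n = 3 each). This was a log2 fold change of -0.83 with a standard error (SE) of 0.182 and an adjusted p of 0.0228 in edgeR's quasi-likelihood test. The call was lost in 4 of 13 alternatives, those without ERR[cond.19-4] control 1 or 2 or knockout 1 or 2, with adjusted p between 0.0564 and 0.127. In ERR[cond.2] females, *ERR* averaged 10.1 ± 0.487 CPM in the libraries labelled knockout and 9.98 ± 1.86 CPM in controls (SD, n = 3 each; log2 0.01, adjusted p = 0.988, edgeR). Its count therefore did not separate the libraries labelled ERR[cond.2] knockout from their controls. The *ERR* count does not distinguish reads of the transgene from reads of the mutant alleles, so it is no check of the ERR[cond.2] labels in either direction.

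All 3 genes lie on chromosome 2R, with coordinates of the deposited table that equal those of the BDGP6 annotation. *CG14499* (FBgn0034317) runs from 18187707 to 18188573 on the plus strand as 1 exon, with a 5′ UTR of 15 bp and a 3′ UTR of 284 bp. Its annotated coding stretch of 565 bp is 1 base past a whole number of codons. *CG14499* lies inside an intron of *CG33958*, a guanylate cyclase family gene of 13 exons on the opposite strand, and shares 0 bp with its exons. *CG42807* (FBgn0261989) runs from 13570595 to 13572759 on the minus strand, with 2 transcripts of 2 exons each that both code over 834 bp. *CG13532* (FBgn0034788) runs from 22871190 to 22874427 on the plus strand, with 6 exons, 5 introns and a coding length of 789 bp.

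The transcripts differed widely in abundance. Per kb of the deposited gene length, *CG14499* averaged 89.3 CPM over all libraries, above 91.2% of the 10029 genes that passed the filter on low counts. *CG42807* averaged 47 CPM per kb, above 82.2% of genes. *CG13532* averaged 2.08 CPM per kb, above 21.2% of genes, and was the weakest expressed of the 3 genes.

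*CG14499* had 64.1, 59.1 and 90.4 CPM in the ERR[cond.19-4] knockout libraries, against 24.1, 25.3 and 17.6 CPM in ERR[cond.19-4] controls. In ERR[cond.2] females it had 88.2, 98.6 and 142 CPM in knockouts, against 107.3, 100.1 and 112.2 CPM in controls. The ERR[cond.19-4] controls were thus set apart at the bottom, and the lowest knockout library of that allele lay well above the highest of these controls. The ERR[cond.2] knockouts spread on both sides of their controls, with library 3 the highest of all 12 and library 1 below every ERR[cond.2] control. Knockout library 3 of ERR[cond.19-4], at 90.4 CPM, lay above ERR[cond.2] knockout library 1.

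*CG42807* had 150.8, 142.4 and 167.9 CPM in ERR[cond.19-4] knockouts, against 53.9, 48.1 and 61.8 CPM in ERR[cond.19-4] controls. It had 71.7, 91.0 and 122.2 CPM in ERR[cond.2] knockouts, against 96.5, 76.2 and 101.8 CPM in ERR[cond.2] controls. Here the ERR[cond.19-4] knockouts were the highest group and overlapped no other group. Again ERR[cond.2] knockouts and controls overlapped, with knockout library 1 below all 3 controls and knockout library 3 above them.

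*CG13532* had 2.05, 1.65 and 1.14 CPM in ERR[cond.19-4] knockouts, against 0.493, 0.633 and 0.307 CPM in ERR[cond.19-4] controls. These levels rest on 41, 34 and 23 counts in the knockouts and on 11, 13 and 6 counts in the controls. It had 9.69, 7.36 and 9.58 CPM in ERR[cond.2] knockouts, against 4.72, 4.46 and 5.74 CPM in ERR[cond.2] controls. No 2 groups overlapped for this gene, and every ERR[cond.2] library lay above every ERR[cond.19-4] library.

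**Figure D1:**
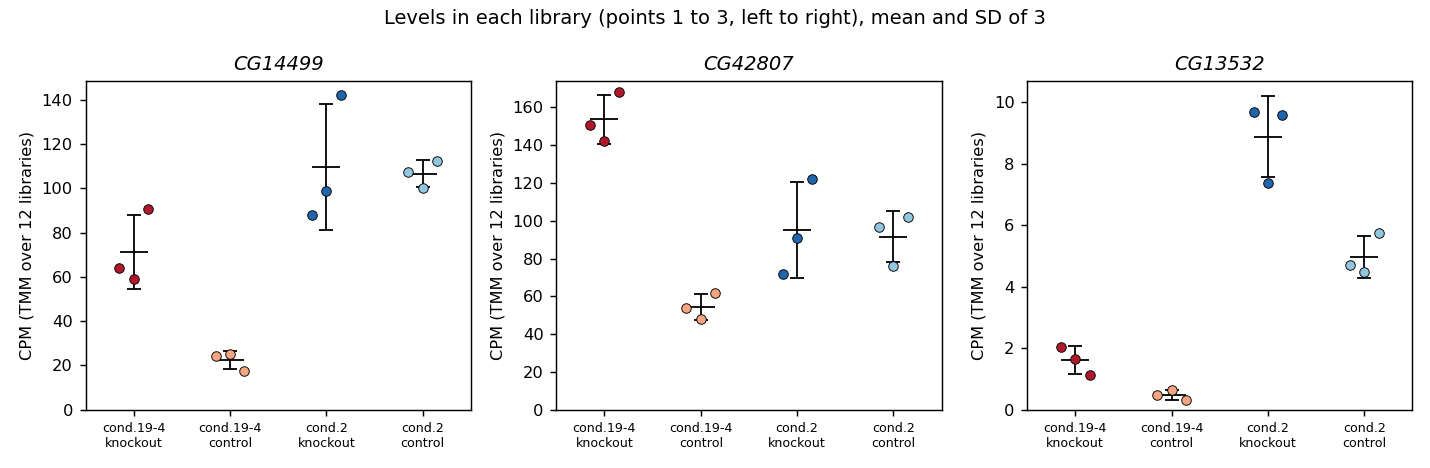
Level of each gene in CPM (vertical axis from 0, TMM over 12 libraries) in the ERR[cond.19-4] knockout, ERR[cond.19-4] control, ERR[cond.2] knockout and ERR[cond.2] control groups. Points are libraries 1 to 3 from left to right and bars are mean and SD (n = 3). The ERR[cond.19-4] controls are the lowest group in all 3 panels, and ERR[cond.2] knockouts lie above all their controls only for *CG13532*.

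The order of the 4 group means differed between the genes. For *CG14499* it was ERR[cond.2] knockouts at 109.6 ± 28.6 CPM, ERR[cond.2] controls at 106.5 ± 6.08 CPM, ERR[cond.19-4] knockouts at 71.2 ± 16.8 CPM and ERR[cond.19-4] controls at 22.3 ± 4.15 CPM (SD, n = 3 each). Only the first and the second of these overlapped as neighbours. For *CG42807* the order was ERR[cond.19-4] knockouts at 153.7 ± 13.0 CPM, ERR[cond.2] knockouts at 94.95 ± 25.5 CPM, ERR[cond.2] controls at 91.5 ± 13.49 CPM and ERR[cond.19-4] controls at 54.6 ± 6.91 CPM. The ERR[cond.2] groups were the only neighbours that overlapped. For *CG13532* it was ERR[cond.2] knockouts at 8.88 ± 1.31 CPM, ERR[cond.2] controls at 4.97 ± 0.679 CPM, ERR[cond.19-4] knockouts at 1.61 ± 0.459 CPM and ERR[cond.19-4] controls at 0.478 ± 0.164 CPM, with no neighbours overlapping. The highest group mean was 4.91 times the lowest for *CG14499*, 2.82 times for *CG42807* and 18.6 times for *CG13532*.

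The spread within groups was not even. For *CG14499* the coefficient of variation was 26.1% in ERR[cond.2] knockouts and 5.71% in their controls, and 23.6% in ERR[cond.19-4] knockouts and 18.6% in theirs. For *CG42807* it was 26.9% in ERR[cond.2] knockouts and 14.7% in their controls, and 8.45% in ERR[cond.19-4] knockouts and 12.7% in theirs. For *CG13532* it was 14.8% in ERR[cond.2] knockouts and 13.7% in their controls, and 28.4% in ERR[cond.19-4] knockouts and 34.3% in theirs. Library 3 was the highest of its knockout group for *CG14499* and *CG42807* with both alleles. For *CG13532* library 3 was the lowest of the ERR[cond.19-4] knockouts.

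The first comparison that chose the genes was ERR[cond.19-4] knockout against control. The choice favours genes with low ERR[cond.19-4] controls, so it can push the members' fold changes upward in this comparison and in the second. *CG14499* was 3.19-fold higher in ERR[cond.19-4] knockouts (log2 1.68, SE 0.159), *CG42807* was 2.83-fold higher (log2 1.498, SE 0.0844) and *CG13532* was 3.34-fold higher (log2 1.74, SE 0.392). All 3 knockout libraries lay above all 3 controls for each gene, as they did for 10.3% of the 9717 transcripts tested. In this comparison edgeR called 259 transcripts higher at an adjusted p under 0.05 (2.67%) and 101 lower. The 3 genes are among those called by construction, so nothing is read from these counts. The median log2 fold change of all transcripts tested was -0.003.

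The second was ERR[cond.2] control against ERR[cond.19-4] control. *CG14499* was 4.77-fold higher in ERR[cond.2] controls (log2 2.25, SE 0.206), *CG42807* was 1.68-fold higher (log2 0.75, SE 0.172) and *CG13532* was 10.2-fold higher (log2 3.36, SE 0.291). The ERR[cond.2] controls lay above all ERR[cond.19-4] controls for each gene, as they did for 27% of the 10029 transcripts tested. Between the control groups edgeR called 2278 transcripts higher in ERR[cond.2] (22.7%) and 2429 lower, so a called difference was common. These counts take in differences of any size and do not show how common those as large as the members' were.

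Both comparisons together called 139 of 9710 transcripts higher (1.43%), with medians of log2 0.51 in ERR[cond.19-4] knockouts and log2 1.20 between the controls. Among these 139, ordered by the size of the change in ERR[cond.19-4] knockouts, *CG13532* was in place 5, *CG14499* in place 7 and *CG42807* in place 11. Ordered by the difference between the controls, *CG13532* was in place 15, *CG14499* in place 36 and *CG42807* in place 98. The rule sets no threshold of size between members and others. *CG10814*, in place 10 with log2 1.59, and *Lsp1alpha*, in place 12 with log2 1.31, stand just before and after *CG42807* and are not among the 3 genes; they were picked here after their values were seen.

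The knockouts of ERR[cond.19-4] did not reach the same place relative to ERR[cond.2] females for each gene. The ERR[cond.19-4] knockout mean was 66.9% of the ERR[cond.2] control mean for *CG14499*, 168% for *CG42807* and 32.5% for *CG13532*. The ERR[cond.19-4] knockout mean was 65% of the ERR[cond.2] knockout mean for *CG14499*, 162% for *CG42807* and 18.2% for *CG13532*.

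The ERR[cond.2] knockout libraries had no part in the choice, and their comparison with ERR[cond.2] controls was tested. The ERR[cond.2] controls did have a part, since the rule took genes where they were high relative to ERR[cond.19-4] controls. That choice can pull the fold changes of this comparison downward, and its p values are not free of the rule. *CG14499* did not pass the test, with a log2 fold change of 0.03 in ERR[cond.2] knockouts over controls (SE 0.174, 95% confidence interval -0.37 to 0.44, adjusted p = 0.925, edgeR). *CG42807* did not pass either, with log2 0.05 (SE 0.200, 95% confidence interval -0.42 to 0.52, adjusted p = 0.913, edgeR). These intervals leave room for a modest change in either direction. For both genes 1 of the 3 knockout libraries lay above all controls, and the exact two-sided permutation test gave p = 1.

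*CG13532* stood apart from the other two. It was 1.77-fold higher in ERR[cond.2] knockouts (log2 0.83, SE 0.185, 95% confidence interval 0.39 to 1.26), and all 3 knockout libraries lay above all 3 controls. All 3 knockouts lay above all 3 controls for 16.7% of the 9660 transcripts tested in this comparison. The unadjusted p was 0.00273 and the adjusted p was 0.117, so *CG13532* was not called by edgeR. The exact two-sided permutation test gave p = 0.1, the smallest that 3 libraries against 3 allow. In this comparison edgeR called 16 transcripts higher (0.166%) and 61 in either direction (0.631%). DESeq2 called *CG13532* higher in ERR[cond.2] knockouts, with log2 0.83 and an adjusted p of 0.00955, and called 3.19% of its 8595 transcripts higher. The edgeR fit of all 12 libraries also called it, with an adjusted p of 0.0321, and called 7.84% of 10029 transcripts higher. A change in ERR[cond.2] knockouts was thus not detected for *CG14499* and *CG42807*, where the choice of high controls can hide a rise. For *CG13532* the call turned on the tool and the libraries in the fit. *CG13532* stood at log2 1.74 in ERR[cond.19-4] knockouts and 0.83 in ERR[cond.2] knockouts. The choice can push the value for ERR[cond.19-4] up and pull the value for ERR[cond.2] down. These values do not settle whether *CG13532* was raised mainly in ERR[cond.19-4] knockouts. Whether the change differed between the alleles was not tested for any of the 3 genes, because the ERR[cond.19-4] change chose them.

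**Figure D2:**
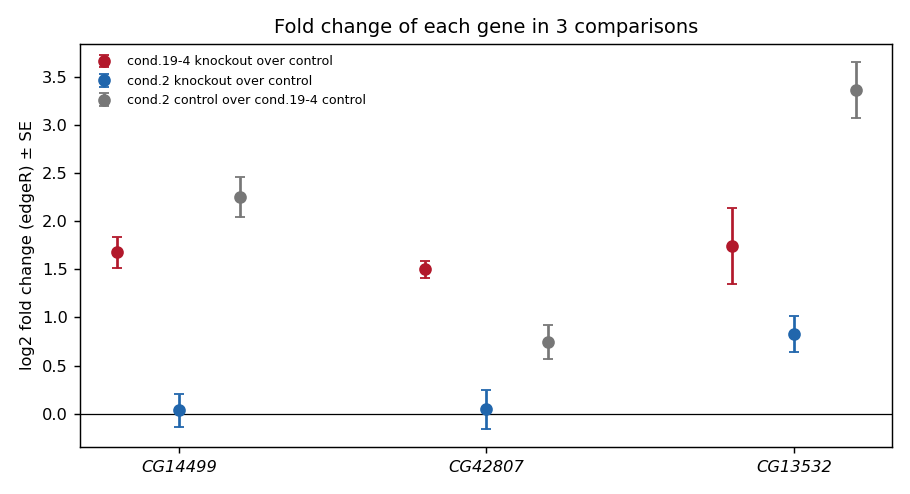
Log2 fold change (vertical axis) of each gene in ERR[cond.19-4] knockouts over controls, ERR[cond.2] knockouts over controls, and ERR[cond.2] controls over ERR[cond.19-4] controls, with SE bars from edgeR. The first and the last comparison chose the genes and carry no test. In ERR[cond.2] knockouts *CG14499* and *CG42807* sit at 0.03 and 0.05, and *CG13532* sits at 0.83.

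The genes next to each member on the chromosome gave a view of whether the surroundings moved too. The 2 nearest genes of the count table were taken on each side by midpoint. *CG14500*, a C-type lectin family gene 404 bp from *CG14499* on the same strand, had 93.7, 91.9 and 82.1 CPM in ERR[cond.19-4] knockouts, against 64.0, 62.0 and 81.0 CPM in ERR[cond.19-4] controls. It was called higher in ERR[cond.19-4] knockouts (log2 0.38, SE 0.0897, adjusted p = 0.0379, edgeR). This call was lost in 5 of 13 alternatives, with adjusted p between 0.129 and 0.346: the fit of all 12 libraries, and the fits without ERR[cond.19-4] control 1 or 2 or knockout 1 or 2. Between the controls *CG14500* went the other way from *CG14499*, at 32.9, 29.4 and 24.7 CPM in ERR[cond.2] controls, against 64.0, 62.0 and 81.0 CPM in ERR[cond.19-4] controls (log2 -1.25, SE 0.128, adjusted p = 2.41e-05, edgeR). The ERR[cond.2] knockouts had 23.5, 28.5 and 23.8 CPM of *CG14500* (log2 -0.21 over their controls, adjusted p = 0.384, edgeR). The neighbours *CG14499* and *CG14500* were thus both higher in ERR[cond.19-4] knockouts, but lay on opposite sides between the control groups.

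*CG33958*, whose intron holds *CG14499*, had 4, 6 and 0 counts in ERR[cond.19-4] knockouts and 2, 6 and 1 counts in ERR[cond.19-4] controls. It had 24, 14 and 13 counts in ERR[cond.2] knockouts and 11, 5 and 5 counts in ERR[cond.2] controls. *CG14499* had at least 344 counts in each library, so the host gene was far below the gene inside its intron in every one of them. The exons of the pair share 0 bp. Whether the counting used strand is not stated in the labels or the methods, so reads of the host's intron over *CG14499* may not be separated from those of *CG14499*. On the other side, *nopo*, an E3 ubiquitin ligase gene, was higher in ERR[cond.2] controls than in ERR[cond.19-4] controls by log2 0.22 (adjusted p = 0.0188, edgeR). That call was lost in 3 of 19 alternatives, with adjusted p between 0.0532 and 0.68: total counts as library size, and the fits without ERR[cond.19-4] control 2 or 3. *CG5721* was called in none of the 3 comparisons by edgeR, at log2 -0.07 in ERR[cond.19-4] knockouts, -0.12 in ERR[cond.2] knockouts and 0.06 between the controls.

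*CG42808*, 858 bp from *CG42807* on the same strand, had 27.3, 29.5 and 23.9 CPM in ERR[cond.19-4] knockouts, against 21.6, 18.3 and 21.04 CPM in ERR[cond.19-4] controls. The knockout libraries all lay above the controls, and the change was called (log2 0.41, SE 0.101, adjusted p = 0.0477, edgeR). The call was lost in 8 of 13 alternatives, with adjusted p between 0.0551 and 0.38, among them the fits without any of the 3 controls or without knockout 1 or 2. In ERR[cond.2] females *CG42808* averaged 18.9 ± 3.78 CPM in knockouts and 18.1 ± 1.25 CPM in controls (SD, n = 3 each; adjusted p = 0.856, edgeR). Between the control groups it was not called (log2 -0.17, adjusted p = 0.347, edgeR). The other neighbours of *CG42807*, which were *CG13334*, a small nucleolar RNA gene and *CR44365*, had at most 3 counts in a library and were not tested.

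**Figure D3:**
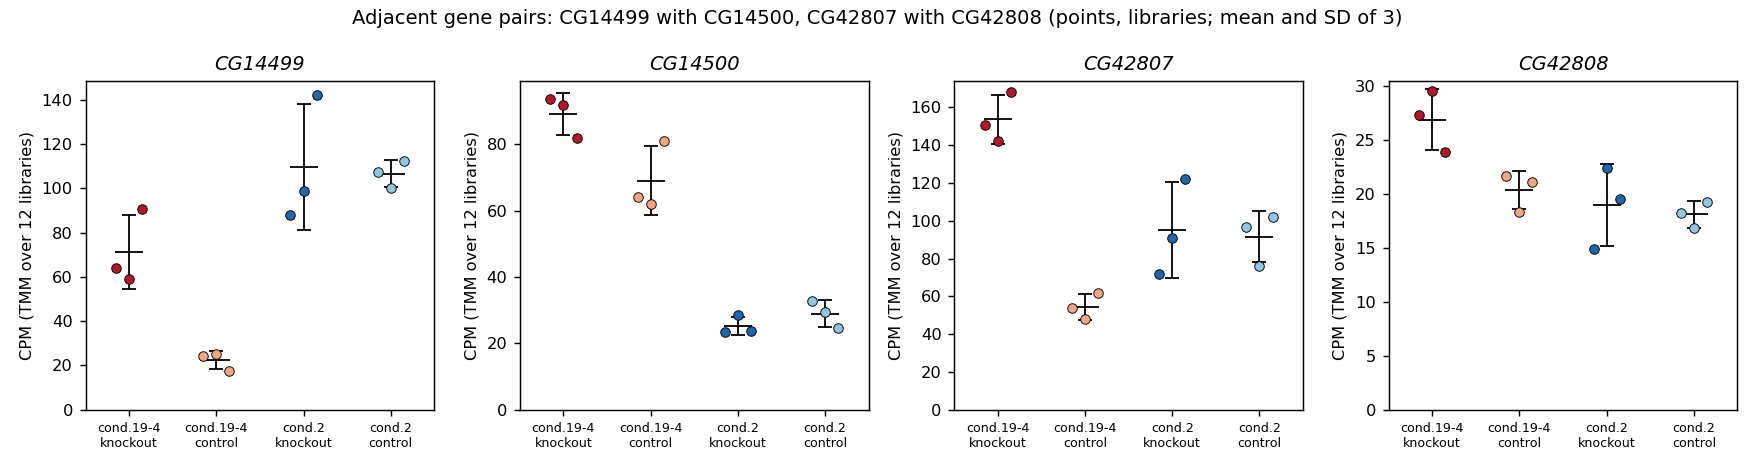
Levels in CPM (vertical axes from 0) of *CG14499* and its neighbour *CG14500*, and of *CG42807* and its neighbour *CG42808*, in the ERR[cond.19-4] knockout, ERR[cond.19-4] control, ERR[cond.2] knockout and ERR[cond.2] control groups. Points are libraries and bars are mean and SD (n = 3). *CG14500* is lower in both ERR[cond.2] groups than in both ERR[cond.19-4] groups, whereas *CG14499* is higher in ERR[cond.2] controls than in ERR[cond.19-4] controls.

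Near *CG13532*, *inaD*, which encodes the scaffold protein of the phototransduction complex in the fly eye, averaged 10.8 ± 1.54 CPM in ERR[cond.2] controls and 5.94 ± 0.649 CPM in ERR[cond.19-4] controls (SD, n = 3 each). This difference was called (log2 0.86, SE 0.170, adjusted p = 0.00152, edgeR) and was lost in none of 19 alternatives. *inaD* was not called by edgeR with either knockout, at log2 0.15 for ERR[cond.19-4] (adjusted p = 0.743) and log2 -0.37 for ERR[cond.2] (adjusted p = 0.244). *PIP5K59B*, a phosphatidylinositol phosphate kinase gene, was called in none of the 3 comparisons by edgeR. The forkhead gene *fd59A* had at most 5 counts in a library, and *CR45469* had 0 counts in each of the 12 libraries.

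The genes whose log2 levels ran most alike to each member over the 12 libraries were listed by Pearson's r, as a description. Such a correlation follows the group means, of which the rule used all but that of the ERR[cond.2] knockouts. For *CG14499* the closest was *GstD2* (r = 0.981), followed by *CG34215*, *CG33926*, *CG32368* and *CG14963* (r = 0.940 for the last). *GstD2* is a member of the Delta class of glutathione S-transferases, enzymes that conjugate glutathione to electrophiles and take part in detoxification. *GstD2* averaged 12.6 ± 0.128 CPM in ERR[cond.19-4] knockouts and 3.91 ± 0.837 CPM in ERR[cond.19-4] controls, and 19.0 ± 4.21 CPM in ERR[cond.2] knockouts and 17.8 ± 1.05 CPM in ERR[cond.2] controls (SD, n = 3 each).

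The closest to *CG42807* were *GstD10* (r = 0.911) and *GstD9* (r = 0.895), also Delta class glutathione S-transferase genes, followed by *CG31087*, *CG7296* and *CR43650* (r = 0.857 for the last). *GstD10* averaged 12.9 ± 1.38 CPM in ERR[cond.19-4] knockouts and 6.18 ± 0.227 CPM in their controls, and 8.50 ± 1.22 CPM in ERR[cond.2] knockouts and 8.42 ± 0.631 CPM in theirs (SD, n = 3 each). *GstD9* averaged 40.9 ± 1.32 CPM in ERR[cond.19-4] knockouts and 25.5 ± 1.69 CPM in their controls, and 35.8 ± 2.41 CPM in ERR[cond.2] knockouts and 29.1 ± 1.15 CPM in theirs. Like *CG42807*, both were highest in ERR[cond.19-4] knockouts and lowest in ERR[cond.19-4] controls. The *GstD* genes are related genes in a cluster. Whether reads fitted more than 1 of them was not measured, so their counts may be uncertain.

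The closest to *CG13532* were *CG11825* (r = 0.961), *CG32199*, *CG5059*, *CG13032* and *CG42806* (r = 0.952 for the last). *CG11825* averaged 20.4 ± 2.13 CPM in ERR[cond.19-4] knockouts and 16.1 ± 1.89 CPM in their controls, and 32.4 ± 1.91 CPM in ERR[cond.2] knockouts and 29.6 ± 0.619 CPM in theirs (SD, n = 3 each). *CG32199* had 6, 2 and 0 counts in ERR[cond.19-4] knockouts and 0 counts in each of their controls, against which no fold is given. In these genes the step between the alleles was larger than the step within either of them.

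**Figure D4:**
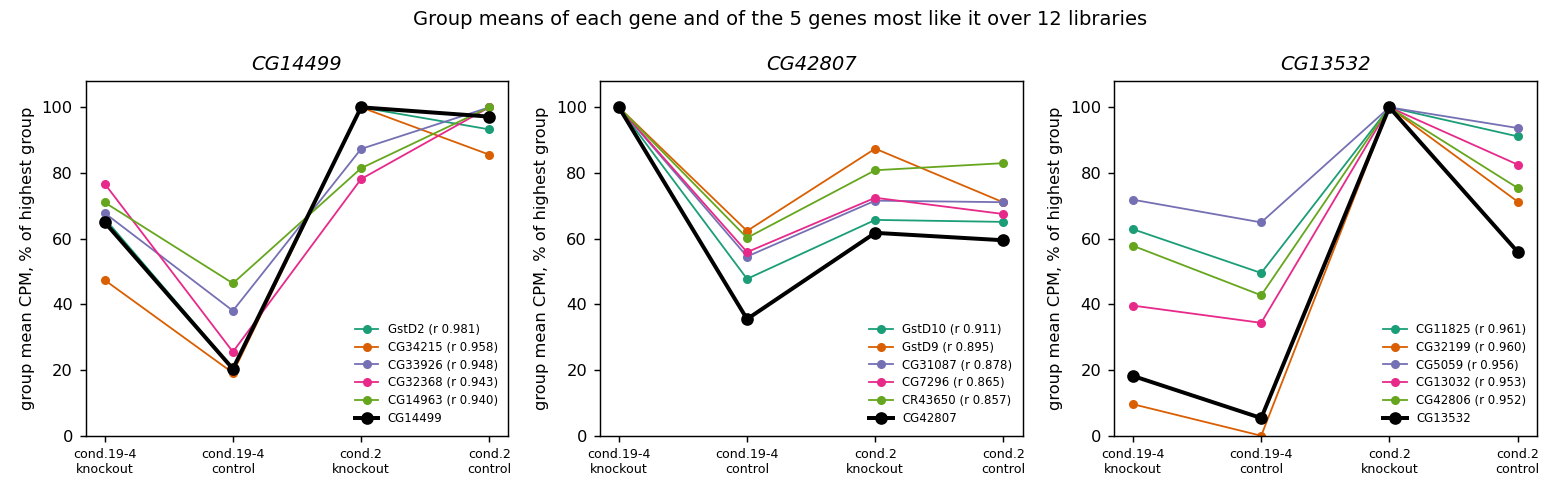
Group mean CPM as a percentage of the gene's highest group mean (vertical axis from 0) for each member in black and for the 5 genes most like it, with Pearson's r over 12 libraries in the legends. The groups are ERR[cond.19-4] knockout, ERR[cond.19-4] control, ERR[cond.2] knockout and ERR[cond.2] control, and the lines only join the points of a gene. The ERR[cond.19-4] controls are the lowest group for each of the genes plotted.

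Among themselves the 3 members were less alike. Over the 12 libraries r was 0.900 between *CG14499* and *CG13532*, 0.622 between *CG14499* and *CG42807*, and 0.329 between *CG42807* and *CG13532*. With the group means taken out, r was 0.111 between *CG14499* and *CG13532*, 0.509 between *CG14499* and *CG42807*, and -0.242 between *CG42807* and *CG13532*. The likeness of *CG14499* and *CG13532* was therefore mostly one of group means.

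A pair of gene families was followed beside the members. C-type lectins, secreted or membrane proteins that bind carbohydrates, were taken because *CG14500* adjoins *CG14499*, and 30 of 31 found had a count. In ERR[cond.19-4] knockouts 3 of 18 tested rose and none fell by edgeR, beside 2.67% higher and 1.04% lower of all transcripts, with a median log2 of 0.21 beside -0.003 for all transcripts. These were *CG14500*, *lectin-37Da* (log2 1.15, adjusted p = 0.000115) and *lectin-37Db* (log2 0.43, adjusted p = 0.00361, and 0.294 in the fit of all 12 libraries). In ERR[cond.2] knockouts 0 of 16 passed by edgeR, with a median of -0.02 beside -0.007. At an unadjusted p under 0.05 there were 4 higher and 1 lower, beside 10.9% higher and 11.4% lower of all transcripts, and DESeq2 called 3 higher, beside 3.19% of all. Between the controls 4 of 19 were higher in ERR[cond.2] and 6 were lower, with a median of -0.07 beside -0.015. Of all transcripts 22.7% were higher and 24.2% lower in this comparison, so these counts are near the background and nothing is read from them about the family.

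Induced immune effectors, the antimicrobial peptides and recognition proteins switched on by Toll and Imd signalling, were followed as well, with 34 found. In ERR[cond.19-4] knockouts 6 of 32 tested rose and none fell by edgeR, beside 2.67% higher and 1.04% lower of all transcripts, with a median log2 of 0.41 beside -0.003. They included the antimicrobial peptide genes *Def* (log2 1.61, adjusted p = 0.000229, lost in no alternative) and *AttD* (log2 2.05, adjusted p = 0.0026, and 0.0745 in the fit of all 12 libraries). *Drs* (log2 0.50) and *PGRP-SC2* (log2 0.49) lost their calls in the fit of all 12 libraries. *CecA1* and *PGRP-SB1* each lost theirs in 5 alternatives, with adjusted p up to 0.429 and 0.535: for both, DESeq2, the fit of all 12 libraries and the fits without ERR[cond.19-4] control 1 or 2, and besides these the fit without knockout 3 for *CecA1* and without control 3 for *PGRP-SB1*. Between the controls 18 of 33 were higher in ERR[cond.2] and 1 was lower, beside 22.7% higher and 24.2% lower of all transcripts, with a median log2 of 1.26 beside -0.015. Of these calls, *AttA* was lost in 10 of 19 alternatives, *CG15067* in 9, *Mtk* in 8, *PGRP-LB* in 6 and *CG5791* in 5. *CecA2* lost its call in 4 of 18 alternatives and *edin* in 3 of 18, and the other calls were lost in none. *Def* was higher by log2 2.05 (adjusted p = 5.36e-05) and *PGRP-SA*, a receptor for Gram-positive bacteria, by log2 3.31 (adjusted p = 1.59e-05), whereas *PGRP-SC2* was lower at log2 -1.47 (adjusted p = 3.79e-05). In ERR[cond.2] knockouts 0 of 33 passed by edgeR, with a median of -0.96 beside -0.007. At an unadjusted p under 0.05, 14 of them were lower and none higher, beside 11.4% lower and 10.9% higher of all transcripts. DESeq2 called 8 lower, beside 3.43% of all. *Def* and the immune list thus moved in the comparisons that chose the members, and their part in the members' values was not tested.

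Whole bodies hold many cell types, and fewer cells of a type cannot be told apart from less RNA per cell. Of 9 marker lists, none of whose genes was at 0 in all libraries, that of the Malpighian tubules, the fly's excretory organs, had a sum that moved with the members in both comparisons that chose them, through 2 of its 4 genes more than the others. Its 4 genes summed to 79.4 to 85.1 CPM in ERR[cond.19-4] knockouts and 51.6 to 63.2 CPM in ERR[cond.19-4] controls. They summed to 71.4 to 121 CPM in ERR[cond.2] knockouts and 101 to 117 CPM in ERR[cond.2] controls. *Uro*, the urate oxidase gene of the tubules, was higher in ERR[cond.19-4] knockouts (log2 0.65, adjusted p = 0.00444, edgeR), and also higher in the controls of ERR[cond.2] than in those of ERR[cond.19-4] (log2 1.14, adjusted p = 0.00151, edgeR). *Smvt*, a transporter gene, did the same, at log2 0.58 in ERR[cond.19-4] knockouts (adjusted p = 0.00895, edgeR) and log2 1.02 between the controls (adjusted p = 0.00233, edgeR). *Irk3* went the other way, at log2 -0.16 in ERR[cond.19-4] knockouts (adjusted p = 0.697, edgeR) and log2 -0.72 in ERR[cond.2] controls over ERR[cond.19-4] controls, where it was called lower (adjusted p = 0.00429, edgeR). *List* was at log2 0.22 in ERR[cond.19-4] knockouts (adjusted p = 0.61, edgeR) and was called higher between the controls, at log2 0.52 (adjusted p = 0.0341, edgeR).

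The sums of other lists did not overlap in 1 or 2 of the 3 comparisons. Single transcripts often did not overlap either. In the higher direction alone this held for 10.3% in ERR[cond.19-4] knockouts, 16.7% in ERR[cond.2] knockouts and 27% in ERR[cond.2] controls over ERR[cond.19-4] controls. Single genes were looked at only for the tubule and fat body lists, so the other sums may rest on few genes. Muscle markers summed to 558 to 626 CPM in ERR[cond.19-4] knockouts and 451 to 546 CPM in their controls. Midgut markers summed to 7620 to 8080 CPM in ERR[cond.19-4] knockouts and 8200 to 9980 CPM in their controls, and to 7120 to 7440 CPM in ERR[cond.2] knockouts and 7470 to 8410 CPM in theirs. Follicle cell markers, of which 7 of 8 were found, summed to 12100 to 23300 CPM in ERR[cond.2] knockouts and 4290 to 10900 CPM in ERR[cond.2] controls, and to 18600 to 27200 CPM in ERR[cond.19-4] controls. Fat body markers summed to 2130 to 3560 CPM in ERR[cond.2] controls and 1130 to 1310 CPM in ERR[cond.19-4] controls. Haemocyte markers summed to 144 to 199 CPM in ERR[cond.2] controls and 85 to 103 CPM in ERR[cond.19-4] controls, and spermathecal markers to 109 to 223 CPM in ERR[cond.2] controls and 64.7 to 83.6 CPM in ERR[cond.19-4] controls. Most of the fat body gap came from *Apoltp*, a lipid transfer lipoprotein gene, at 889 to 1440 CPM in ERR[cond.2] controls and 50 to 59.3 CPM in ERR[cond.19-4] controls. Of the other fat body genes, *apolpp* was called higher in ERR[cond.2] controls by edgeR (log2 0.71, adjusted p = 0.00205) and *Npc2d* was called lower (log2 -1.34, adjusted p = 0.000385). *Lsp2*, *Fbp1* and *Lsd-1* were not called between the controls, at log2 -0.30, 0.42 and 0.25, and *Fbp2* was too low to be tested. Germline and neuronal markers overlapped in all 3 comparisons. The part of these markers in the members' values was not tested.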

How the data were processed

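RNA of whole adult females was sequenced in 12 libraries, 3 per group, which the study's methods describe as independent experiments. The authors deposited unnormalized counts of reads in each gene, made with the aligner TopHat and the counter HTSeq. Versions, build and strand setting are not given in the sources used. The other columns used are the authors' gene length in bp, gene coordinates and family field. Of 17558 identifiers 17252 were found in the BDGP6 annotation, and 16959 had the same coordinates (98.3%). Sequences were not used here.

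Each allele was fitted on its 6 libraries with edgeR 4.0.16 in R 4.3.3 (TMM, filterByExpr, quasi-likelihood test), and the controls were compared in a fit of all 12 libraries. Calls were made at 0.05 after Benjamini-Hochberg adjustment across the genes of a fit. Libraries of 17167432 to 20625801 counts set the precision. Likeness used log2 CPM with a prior count of 2. Figures were drawn with matplotlib 3.10.9.

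The members and lists were chosen with earlier results of these data known. Genes named with results are the members, *ERR*, the 2 nearest genes on each side, the 5 most alike genes, and called genes of the lists. Genes of the tubule and fat body marker lists are named whether called or not. *CG10814* and *Lsp1alpha* were picked after their values were seen. A search for similar proteins, part of the naming rule, was not run. The 9 marker lists and 2 gene lists came from general knowledge. Alternatives were DESeq2 1.42.0, edgeR with size factors of DESeq2 or with total counts as library size, a minimum of 1 count in all or of 10 counts per library, a fit of all 12 libraries or of the controls alone, a block for the replicate number, and each library left out. The fits were tested on simulated data. Same-numbered libraries were not taken as pairs.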

Additional observations from a re-analysis of the deposited data

How the results depend on the processing

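The values that chose the genes kept their direction in the alternatives run. The alternatives refit the libraries that the choice used, so this was largely fixed by the choice and nothing is read from it. In ERR[cond.19-4] knockouts the log2 fold change ran from 1.46 to 1.79 for *CG14499*, from 1.41 to 1.59 for *CG42807* and from 1.52 to 1.98 for *CG13532*, which was filtered out with at least 10 counts in every library. For *CG13532* in ERR[cond.2] knockouts, DESeq2 (log2 0.83, adjusted p = 0.00955) and the edgeR fit of all 12 libraries (log2 0.83, adjusted p = 0.0321) passed the threshold, and the other alternatives gave log2 0.75 to 0.95 with adjusted p up to 0.389. *CG14499* and *CG42807* were never called in ERR[cond.2] knockouts, and leaving out a library gave -0.20 to 0.17 and -0.18 to 0.21. Their sign turned without ERR[cond.2] control 2 (log2 -0.01 and -0.07) and without ERR[cond.2] knockout 3 (-0.20 and -0.18). The 61 transcripts called in ERR[cond.2] knockouts became 569 with DESeq2, 97 with every gene of at least 1 count, 1414 in the fit of all 12 libraries and 15 to 44 with a library left out. The 259 called higher in ERR[cond.19-4] knockouts became 41 in the fit of all 12 libraries and 147 to 305 with a library left out. The 139 called higher by both comparisons became 18 and 83 to 146 in those fits. The 2278 called between the controls stayed between 1529 and 2383. The causes were not tested.

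Same-numbered libraries deviated together with r between -0.298 and 0.0913, so the numbers were not taken to pair samples. With the replicate block, 9 transcripts were called in ERR[cond.2] knockouts, and *CG13532* had log2 0.82 (adjusted p = 0.389, edgeR). At 6 to 41 counts a library, the ERR[cond.19-4] values of *CG13532* are the least precise.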
